A study of Bos taurus with 6 samples.

Results

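The 10 genes examined encode subunits of the SWI/SNF chromatin remodelling complexes: the ATPases SMARCA2 and SMARCA4, the core and accessory subunits SMARCB1, SMARCC1, SMARCC2, SMARCD1 and SMARCE1, and the ARID-domain subunits ARID1A, ARID1B and ARID2. They were chosen by name from the 26107 genes that the deposited files print beside their windows of 3 kb, and the set was proposed because ARID1A holds a window with fewer reads at 16 months. All windows carrying the label of a member were taken, which gave 403 of 902984 windows. Reads were counted in MIRA-Seq libraries of dermal fibroblasts, connective tissue cells of the skin, cultured from the same 3 Holstein heifers at 5 months and again at 16 months of age (n = 3 per age). All cultures were at passage 5, were untreated, had seen no LPS and came from animals with a middle response to LPS in earlier tests of IL-8. Each animal gave 1 library per age, so age could be compared within animals, but age and the time of sampling cannot be told apart. The files hold reads of DNA, so markers of the cell type could not be checked.

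SWI/SNF complexes use the energy of ATP to slide or evict nucleosomes, and they open enhancers and promoters for transcription. Each complex holds a single ATPase, either SMARCA4 (BRG1) or SMARCA2 (BRM), on a shared core, while ARID1A or ARID1B marks the canonical BAF complex and ARID2 the PBAF complex. DNA methylation in mammals lies mostly on CpG sites. It is generally low at the CpG islands where many genes start and high within the bodies of expressed genes.

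In MIRA, methyl-binding proteins pull down sonicated DNA that carries methylated CpG sites, so the reads of a window rise with its methylation and also with its number of CpG sites. Levels are given as RPKM, the reads of a window per kb and per M matched reads of the library. Because CpG density differs between windows, a difference in level between genes or regions cannot be told apart from a difference in CpG density. A difference between ages at a single window compares the same stretch of DNA, but the libraries differed in how far their reads gathered in few windows. The 1% of autosomal and X windows with most reads held 45.2% to 58.5% of the reads of those chromosomes. The part of this in differences between ages was not tested. In pooled cells, methylation in fewer cells and less methylation in each cell cannot be told apart. Counted reads ranged from 19.9 to 43.6 M per library. The 5-month library of animal 1 and the 16-month library of animal 2 were the shallowest, and 20.8% and 15.6% of the member windows had 0 reads in them, against 2.23% to 10.7% in the other libraries. The 16-month library was the deeper of the pair in animal 1 and the shallower in animals 2 and 3.

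The 10 genes spanned a wide range of levels, from 0.0322 RPKM in ARID2 to 1.72 RPKM in SMARCB1, as means over windows and libraries. Of the 2 ATPase genes, SMARCA4 was among the genes with most signal. Its 31 windows on chromosome 7 (16648246-16741245, plus strand, UMD v3.1) averaged 1.03, 0.787 and 0.586 RPKM in animals 1, 2 and 3 at 5 months and 0.800, 0.778 and 0.553 RPKM at 16 months, a mean of 0.755 ± 0.172 RPKM (SD, n = 6). This level was above that of 89.6% of the labelled genes. SMARCA2 had a level of 0.105 ± 0.0184 RPKM over its 60 windows on chromosome 8 (42650287-42830286, minus strand), with 0.102, 0.123 and 0.0895 RPKM at 5 months and 0.113, 0.0794 and 0.125 RPKM at 16 months. SMARCA4 lay above SMARCA2 in all 6 libraries, and the ranges of the pair did not meet.

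SMARCB1, the core subunit also known as SNF5 or BAF47, had the highest level of the set. Its 6 windows on chromosome 17 (73222794-73240793, plus strand) averaged 1.75, 2.21 and 1.05 RPKM at 5 months and 2.19, 2.305 and 0.836 RPKM at 16 months, a mean of 1.72 ± 0.637 RPKM that exceeded 97.5% of the labelled genes. Both libraries of animal 3 were the lowest, and the ages overlapped. The scaffold paralogs SMARCC1 (BAF155) and SMARCC2 (BAF170) stood far apart. SMARCC2, with 7 windows on chromosome 5 (57465606-57486605, plus strand), had 0.572, 0.376 and 0.266 RPKM at 5 months and 0.423, 0.257 and 0.279 RPKM at 16 months. SMARCC1, with 41 windows on chromosome 22 (52511667-52634666, plus strand), had 0.0368, 0.0699 and 0.0406 RPKM at 5 months and 0.0503, 0.0304 and 0.0572 RPKM at 16 months. The lowest SMARCC2 value was thus above the highest SMARCC1 value.

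By their means the accessory subunits lay below SMARCC2 and above SMARCC1. SMARCD1 (BAF60A), with 5 windows on chromosome 5 (29966306-29981305, minus strand), averaged 0.144 ± 0.0518 RPKM. Its 16-month library of animal 2 was lowest at 0.0479 RPKM, while the other libraries lay between 0.140 and 0.194 RPKM. SMARCE1 (BAF57), a subunit with an HMG domain, averaged 0.0775 ± 0.0226 RPKM over 9 windows on chromosome 19 (41485475-41512474, minus strand), with a range of 0.0532 to 0.109 RPKM.

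Among the ARID subunits, which carry an AT-rich interaction domain that binds DNA, ARID1A and ARID1B were close to the middle of all labelled genes and ARID2 was low. ARID1A, with 30 windows on chromosome 2 (126997334-127087333, minus strand), had 0.163, 0.168 and 0.128 RPKM at 5 months and 0.146, 0.114 and 0.132 RPKM at 16 months. ARID1B, the longest member with 142 windows on chromosome 9 (94847551-95273550, plus strand), averaged 0.113 ± 0.0128 RPKM. ARID2, with 72 windows on chromosome 5 (34484506-34700505, minus strand), had 0.0160, 0.0452 and 0.0265 RPKM at 5 months and 0.0344, 0.0207 and 0.0501 RPKM at 16 months, above only 25.8% of labelled genes. Its lowest values were in the 2 shallowest libraries.

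Ordered by their mean, the genes ran SMARCB1, SMARCA4, SMARCC2, SMARCD1, ARID1A, ARID1B, SMARCA2, SMARCE1, SMARCC1 and ARID2. Neighbours in this order kept their order in 6 of 6 libraries, except SMARCD1 over ARID1A (3 of 6) and ARID1B over SMARCA2 (4 of 6). Only SMARCC2 and SMARCD1 had ranges that did not overlap, so most neighbouring levels were not separated beyond the spread between libraries.

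**Figure D1:**
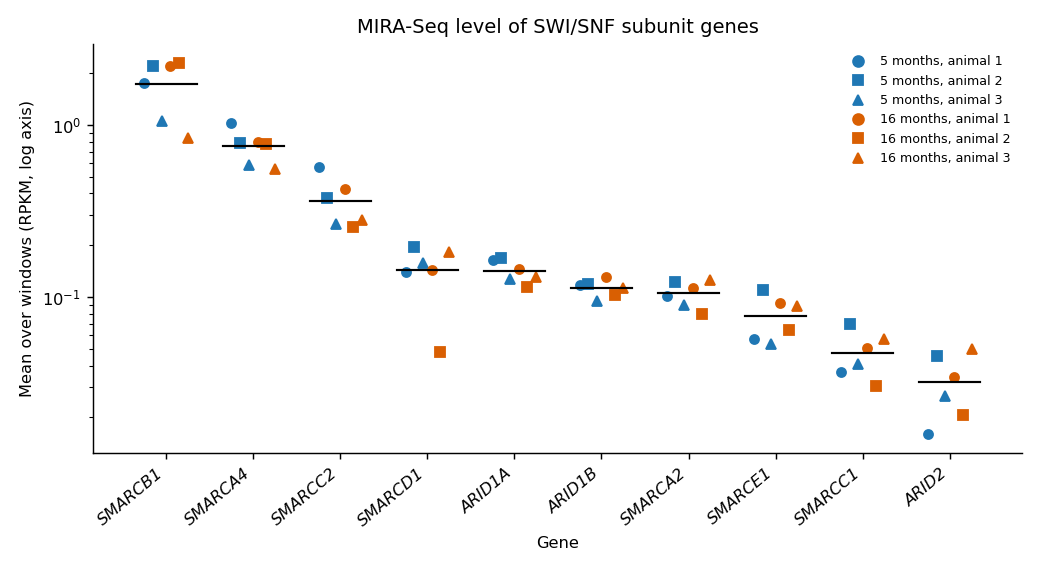
Mean level of each SWI/SNF gene over its windows (RPKM, log axis) in each of the 6 libraries, with colour for age, marker shape for animal and a black bar for the mean. SMARCB1, SMARCA4 and SMARCC2 lie at the top, and the ages overlap in every gene on this scale.

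The signal was not spread evenly along the genes. In ARID1A it was gathered at the 3′ end. The 10 windows nearest the 3′ end, of 30, held 69.2% ± 6.03 of its reads (SD, n = 6) and the 10 nearest the 5′ end 7.22% ± 3.07. The window with most reads, chr2:127003334-127006333, is followed by 2 more before the 3′ end, and its level was 1.498, 1.35 and 1.05 RPKM at 5 months and 1.61, 1.75 and 1.01 RPKM at 16 months. Genes were also divided into 3 parts along their length, in whole windows, so the parts are unequal in short genes. The last part held above 50% of the reads in SMARCC2 (70.5% ± 7.25 in 3 of 7 windows) and SMARCC1 (62.3% ± 5.79 in 14 of 41). The same held in SMARCE1 (56.8% ± 10.7 in 3 of 9) and SMARCD1 (53.7% ± 6.07 in 2 of 5).

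ARID1B showed another pattern, with isolated peaks in a long region of low signal. The first 47 of its 142 windows held 49.9% ± 5.01 of its reads and the last 48 held 39.4% ± 1.76. This leaves little for the middle. Its window with most reads, chr9:94922551-94925550, holds no coding sequence and had 0.964, 0.933 and 0.761 RPKM at 5 months and 1.71, 2.16 and 0.547 RPKM at 16 months. In this window animals 1 and 2 were higher at 16 months and animal 3 was lower.

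SMARCA4 had several peaks along its body. The highest, chr7:16699246-16702245, had 2.72, 2.82 and 1.58 RPKM at 5 months and 3.00, 3.47 and 1.31 RPKM at 16 months. In SMARCB1 the signal was highest in the last window, chr17:73237794-73240793, with 3.43, 4.47 and 1.58 RPKM at 5 months and 4.07, 4.70 and 1.11 RPKM at 16 months. In SMARCC2 the peak was chr5:57477606-57480605, the fifth of its windows, which held from 28.9% to 54.4% of the reads of the gene. SMARCA2 peaked at chr8:42671287-42674286, which had 0.637 ± 0.201 RPKM (SD, n = 6). The peaks of the remaining genes were low, at 0.238 ± 0.0859 RPKM for SMARCC1 (chr22:52607667-52610666), 0.237 ± 0.0994 RPKM for SMARCD1 (chr5:29969306-29972305), 0.226 ± 0.0870 RPKM for SMARCE1 (chr19:41488475-41491474) and 0.103 ± 0.0577 RPKM for ARID2 (chr5:34565506-34568505).

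**Figure D2:**
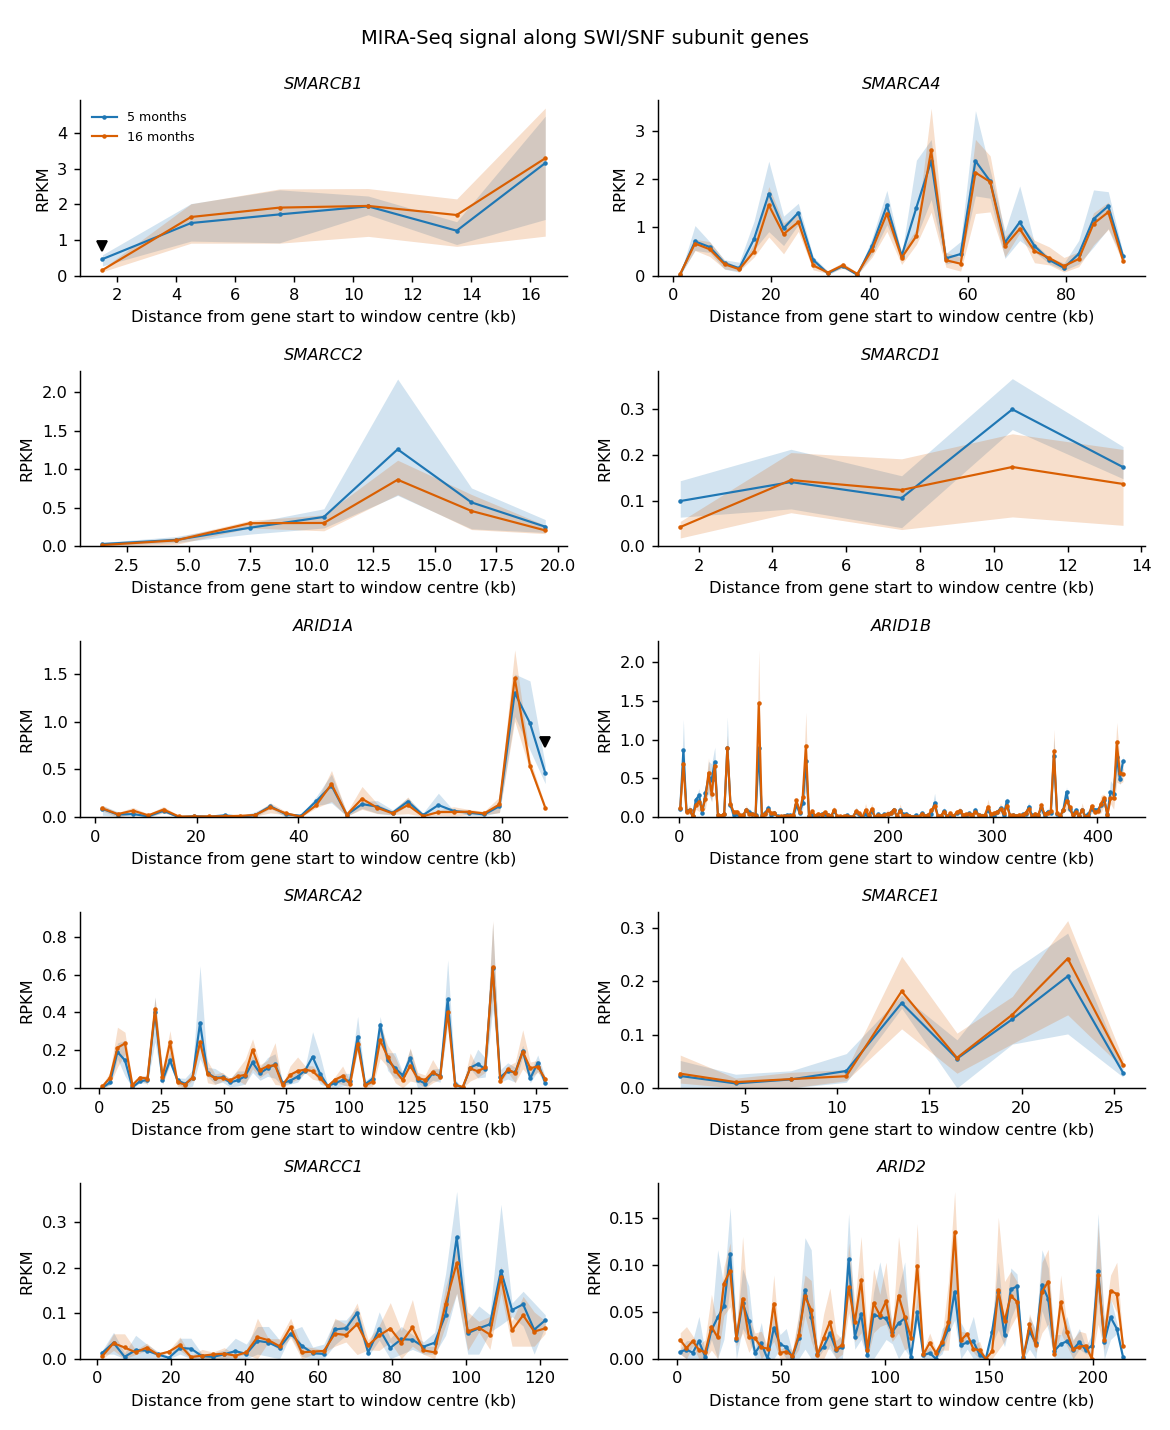
Level of each window (RPKM) against the distance of its centre from the start of the labelled gene on its strand (kb), with the mean of 3 animals as a line and their range as a shaded band, in blue at 5 months and in orange at 16 months. Arrowheads mark the windows of SMARCB1 and ARID1A that were called lower at 16 months, and the vertical scales differ between genes.

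The first window of a gene on its strand was compared with the mean of its other windows, the body, within each library on the log2(RPKM + 0.05) scale. The first windows were lower than the body in most members, but not all were low among genes. Of 26227 first windows, 83.7% lay below that of SMARCB1, 69.6% below ARID1B, 65.4% below ARID1A and 60.2% below SMARCD1. For the other members this share was 6.94% to 37.4%. SMARCA2 had the lowest, chr8:42827287-42830286, with 0, 0.00644 and 0 RPKM at 5 months and 0, 0.0184 and 0.00684 RPKM at 16 months, against a body of 0.107 ± 0.0188 RPKM. The first window of SMARCA4, chr7:16648246-16651245, had 0.0294 ± 0.0153 RPKM against 0.780 ± 0.178 RPKM in the body, a log2 difference of -3.38 ± 0.55 (SD, n = 6). The differences were -2.64 ± 0.53 in SMARCC2 (chr5:57465606-57468605), -2.60 ± 0.95 in SMARCB1 (chr17:73222794-73225793) and -1.51 ± 0.29 in SMARCA2. Smaller differences were found in SMARCE1 (chr19:41509475-41512474, -0.89 ± 0.37), SMARCC1 (chr22:52511667-52514666, -0.71 ± 0.13) and ARID1A (chr2:127084334-127087333, -0.53 ± 0.57).

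In these 7 genes the first window was lower than the body in 6 of 6 libraries, and each passed the test (exact sign-flip over libraries, two-sided, p = 0.03125, the smallest that 6 libraries allow, adjusted p = 0.0446 over the 10 genes). The 6 libraries come from 3 animals, and the same exact test over 3 animals cannot go below 0.25. Among 21457 labelled genes with at least 2 windows, 44.9% had a lower first window in all 6 libraries, with a median log2 difference of -0.33. The first windows of SMARCD1 (chr5:29978306-29981305, -0.82 ± 0.48), ARID2 (chr5:34697506-34700505, -0.37 ± 0.33) and ARID1B (chr9:94847551-94850550, -0.09 ± 0.41) did not pass. The first windows of the paralogs ARID1B and ARID1A overlapped in level, at 0.0369 to 0.181 RPKM and 0.0205 to 0.123 RPKM. When the median over body windows was taken in place of the mean, 0 of 10 genes passed the exact test. The first window was still lower in every library in 5 genes, SMARCA4 (-2.93), SMARCB1 (-2.43), SMARCC2 (-2.26), SMARCA2 (-1.09) and SMARCE1 (-0.45), at an adjusted p of 0.0521 (exact test). The values of ARID1A and ARID1B turned to 0.39 and 0.77. That of ARID1B was higher in every library, at the same adjusted p of 0.0521 (exact test). The first labelled window of ARID2 and that of SMARCD1 carry a coding sequence number above 1 in the files, so those windows may not hold the start of the gene.

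Windows with coding sequence, of which the members have 133, were then compared with the other body windows. This was possible in 7 genes, because every window of SMARCB1, SMARCC2 and SMARCD1 holds coding sequence. Coding windows were higher in ARID1A, at 0.356, 0.294 and 0.236 RPKM at 5 months and 0.270, 0.247 and 0.206 RPKM at 16 months, against a mean of 0.0554 ± 0.0229 RPKM in its other body windows. This is a log2 difference of 1.61 ± 0.45, which fell to 0.61 with the median over windows. Of its 12 coding body windows, the 3 at the 3′ end and chr2:127039334-127042333 had 0.282 to 1.38 RPKM and the other 8 had 0.00734 to 0.146 RPKM. They were also higher in SMARCA4 (1.04 against 0.324 RPKM, log2 difference 1.52 ± 0.39), ARID1B (0.286 against 0.0882 RPKM, 1.28 ± 0.09), SMARCE1 (0.85 ± 0.29) and SMARCA2 (0.40 ± 0.12).

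Each of these 5 genes had higher coding windows in 6 of 6 libraries (exact sign-flip test, adjusted p = 0.0365 over 7 genes), as did 52.5% of the 12156 labelled genes with both kinds of window. ARID2 went the other way in 6 of 6 libraries, with 0.0197 ± 0.00872 RPKM in coding and 0.0350 ± 0.0148 RPKM in other body windows (log2 difference -0.28 ± 0.10, exact test, adjusted p = 0.0365). Both means lay below the 0.05 RPKM added before the logarithm. The 72 windows of ARID2 held 112 to 527 reads per library, so this difference rests on few reads per window. With the median over windows ARID2 did not pass (-0.21, exact test, adjusted p = 0.0729). Coding windows were lower in all 6 libraries in 15.6% of labelled genes. SMARCC1 differed by 0.08 ± 0.30 and did not pass.

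**Figure D3:**
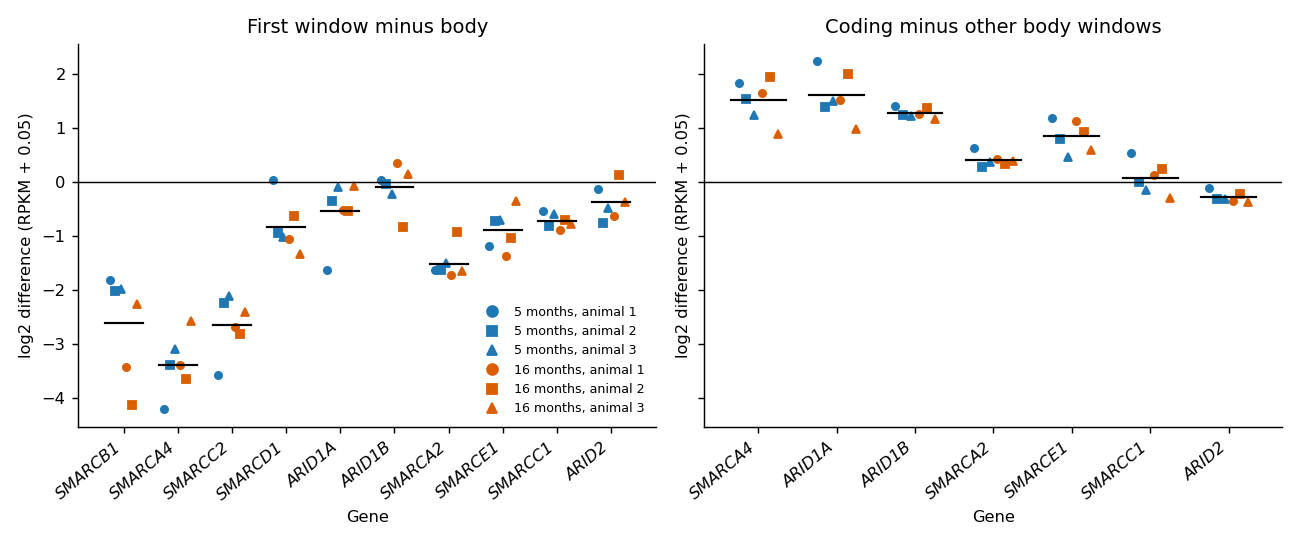
Log2 differences on the log2(RPKM + 0.05) scale between the first window and the body (left) and between coding and other body windows (right) in each gene, with 1 point per library, colour for age, marker shape for animal and a bar for the mean. On the left most points lie below 0, and on the right those of SMARCA4, ARID1A, ARID1B, SMARCA2 and SMARCE1 lie above 0 and those of ARID2 below.

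Whether methylation of these genes differed between 5 and 16 months was asked at single windows. The test was the quasi-likelihood test of edgeR, with the animal as a block, on windows reaching 1 count per M (CPM) in 3 or more of the 6 libraries. A call required an FDR below 0.1 together with a change of at least 2-fold. Of the 403 member windows, 71 passed the filter on low counts and 332 did not. The untested windows had a median of 5 reads per library against 70 in the tested ones. All 6 windows of SMARCB1, 26 of 31 of SMARCA4 and 5 of 7 of SMARCC2 were tested. In ARID1B 20 windows passed, in SMARCA2 7, in ARID1A 4 and in SMARCC1, SMARCD1 and SMARCE1 1 each, while no window of ARID2 passed.

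Fewer reads at 16 months were called in 2 of the 71 tested windows, 1 in ARID1A and 1 in SMARCB1, and no window was called higher. Over all 104658 windows tested 0.185% were called, 0.105% as lower at 16 months and 0.0803% as higher. The set was proposed for the ARID1A window, so the count is a description.

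The ARID1A window, chr2:126997334-127000333, is the last of the gene and carries coding sequence number 22, the highest number in the gene. At 5 months it held 48, 85 and 66 reads in animals 1, 2 and 3, and at 16 months 19, 9 and 18. On the CPM scale, with TMM factors over the tested windows, the values were 2.21, 2.82 and 2.86 at 5 months and 0.453, 0.446 and 0.914 at 16 months. All 16-month values lay below all 5-month values, and the means were 2.63 ± 0.365 and 0.605 ± 0.268 CPM (SD, n = 3). The log2 fold change of 16 over 5 months was -2.16 with a standard error of 0.38. No test is given for it, since these values chose the gene, and over the other settings and left-out animals the log2 fold change ranged from -1.97 to -2.46. It was not called with no filter, with no animal block or without animal 1. The highest depth of this window divided by its reads was 0.354 to 0.556, and the median over tested windows was 0.214. This ratio is not a share of reads, and it reached 2 in a nearby window with 1 read in that library. The part of stacked reads in the difference was not tested.

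The decrease in ARID1A weakened towards the gene body. The neighbouring window, chr2:127000334-127003333, held 139, 109 and 155 reads at 5 months, against 124, 53 and 76 at 16 months. It was lower at 16 months in 3 of 3 animals, at 5.57 ± 1.71 and 3.15 ± 0.639 CPM, and its log2 fold change of -0.81 (standard error 0.21) was short of 2-fold. The next window, which is the peak of the gene, had 7.42 ± 1.01 CPM at 5 months. At 16 months it had 8.24 ± 1.03 CPM, and the log2 fold change was 0.16. The remaining tested window, chr2:127039334-127042333, had 1.75 ± 0.467 and 1.90 ± 0.605 CPM. Beyond the 3′ end, the adjoining window, which has no gene label, held 0 to 4 reads per library, too few to compare.

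The SMARCB1 window, chr17:73222794-73225793, is the first of that gene and carries its first coding sequence. It held 52, 91 and 51 reads at 5 months, against 40, 12 and 24 at 16 months, or 2.39, 3.01 and 2.21 CPM against 0.955, 0.594 and 1.22 CPM. The ages did not overlap, at 2.54 ± 0.423 and 0.923 ± 0.314 CPM, and the log2 fold change was -1.46 with a standard error of 0.35 (edgeR quasi-likelihood test, adjusted p = 0.0336 over all windows tested). The adjacent windows did not share the difference. The 3 windows upstream, labelled MMP11, a gene for a matrix metalloproteinase, had log2 fold changes of 0.02, 0.09 and -0.07, and the next 4 windows of SMARCB1 had 0.15, 0.15, -0.04 and 0.38. The call was lost with DESeq2, with library size only, with TMM factors from all windows, with no filter, with no animal block and without animal 1 (log2 fold change -1.55) or animal 2 (-1.11).

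**Figure D4:**
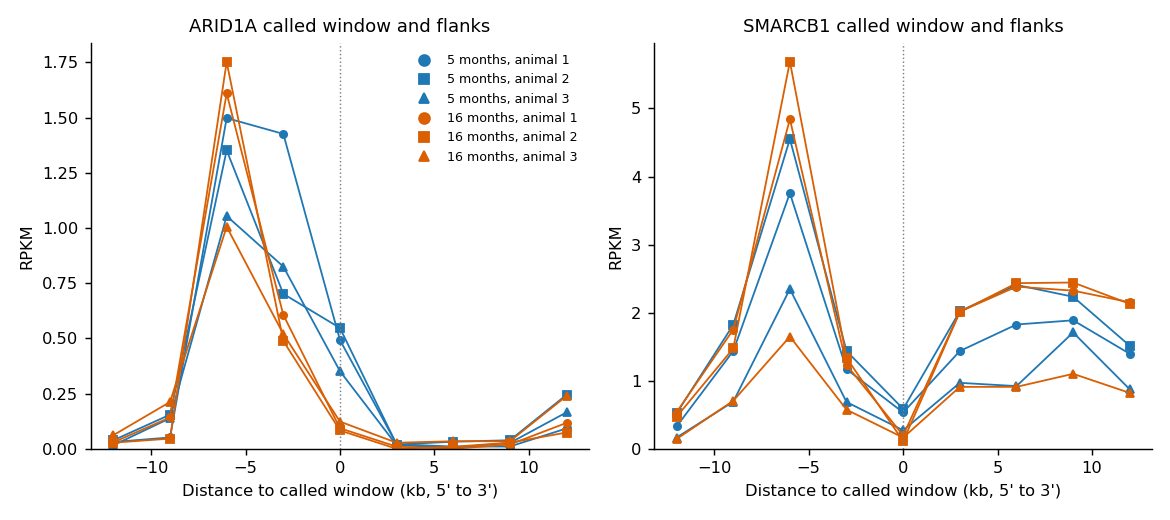
Level (RPKM) of the called windows of ARID1A and SMARCB1 (dotted line, distance 0) and of the 4 windows on either side of each, against the distance in kb in the direction of transcription, with 1 line per library. At distance 0 the 3 lines of 16 months lie below those of 5 months in both genes, and the neighbouring windows are mixed except for the ARID1A window at -3 kb.

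The ARID1A window of -0.81 passed the FDR limit but not the 2-fold limit. The members nearest to the call after it were 2 windows of SMARCA4, chr7:16696246-16699245 with a log2 fold change of -0.65 and chr7:16705246-16708245 with -0.86, and the peak of ARID1B with 0.58. None of these 3 passed the FDR limit. At chr7:16696246-16699245 the values were 10.7, 4.11 and 8.49 CPM at 5 months and 4.70, 3.47 and 6.35 CPM at 16 months, lower in 3 of 3 animals but overlapping between ages. Without the libraries of animal 3, 4 of 72 member windows tested were called. They were those of ARID1A, which chose the set, and SMARCB1, together with chr7:16705246-16708245 in SMARCA4 (-1.48) and the ARID1B peak (1.10, higher at 16 months). Calls over all windows then rose as well, to 1278 of 103419 tested, against 194 of 104658 with all animals.

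Most of the 71 tested windows moved little. Log2 fold changes ranged from -2.16 to 0.85, the latter in SMARCA2 (chr8:42818287-42821286, 0.788 ± 0.437 CPM at 5 months and 1.35 ± 0.221 CPM at 16 months), and only the 2 called windows reached 2-fold. The estimate was below 0 in 48 windows (67.6%, against 52.6% of all windows tested), and the median was -0.15 against -0.02 over all windows tested. An unadjusted p under 0.05 was found in 8 windows, 7 lower and 1 higher (11.3%, background 7.1%). The ages did not overlap in 6 windows (8.45%, background 5.28%), 4 of them lower at 16 months (background 2.43%), and the 3 animals moved in the same direction in 24 (33.8%, background 26%). By animal, the median difference was -0.11 with 42 windows lower in animal 1, -0.0033 with 36 lower in animal 2 and -0.16 with 48 lower in animal 3, so animal 2 did not show the lean. Of the 48 windows below 0, 23 were in SMARCA4, where 26 were tested, with a median of -0.16. Of these 26 windows, 10 moved in the same direction in 3 animals (background 26% of all windows tested). Summed over its windows, SMARCA4 had log2 differences of -0.45 in animal 1, 0.29 in animal 2 and -0.37 in animal 3. In ARID1B 10 of 20 were below 0. Windows of 1 gene are not independent of each other. These counts include the ARID1A window that chose the set, so they are a description. ARID1A gave 2 of the 8 windows with an unadjusted p under 0.05 (edgeR quasi-likelihood test) and 1 of the 6 without overlap.

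**Figure D5:**
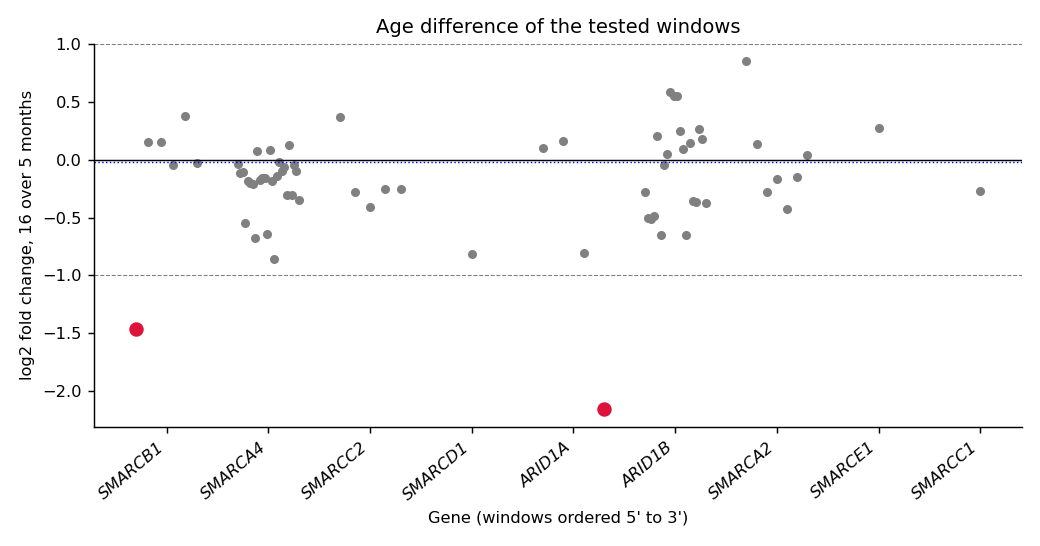
Log2 fold change of 16 over 5 months for the 71 tested windows of 9 genes, ordered 5′ to 3′ within a gene, with dashed lines at 2-fold and a dotted line at the median of all windows tested. The called windows of SMARCB1 and ARID1A are drawn in red, and the other points lie within 2-fold.

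Summed over all its windows, no member was called between ages, and 0 of the 10 reached an unadjusted p under 0.05 (edgeR). Of all 18025 genes tested in this way 0.0111% were called and 0.621% had such a p. ARID1A was the only member whose ages did not overlap, with 64.5, 61.1 and 68.6 CPM at 5 months and 53.9, 51.5 and 58.1 CPM at 16 months. Its log2 fold change was -0.25 with a standard error of 0.25. Over all genes tested the ages did not overlap in 3.17%. The sum holds the called window, whose values chose the gene. Without that window the ages overlapped, at 58.0, 54.5 and 62.3 CPM against 52.7, 50.2 and 56.2 CPM, and the log2 fold change was -0.13. The other members ranged from -0.57 (SMARCD1, standard error 0.39) to 0.28 (ARID2, standard error 0.29). The animals did not agree in the genes with low signal. The sums of ARID2, SMARCC1 and SMARCE1 were higher at 16 months in animal 1, with log2 differences of 0.99, 0.35 and 0.58, and in animal 3, with 0.62, 0.21 and 0.42, but lower in animal 2, with -0.81, -0.88 and -0.44. Between the ages the share of member windows at 0 went from 20.8% to 3.23% in animal 1, from 10.7% to 4.22% in animal 3 and from 2.23% to 15.6% in animal 2, and its part in these estimates was not tested. In animals 1, 2 and 3 counted reads went from 19.9 to 43.6, 32.1 to 21.5 and 37.3 to 29.7 M. At 5 months the 1% of windows with most reads held 47.2%, 45.2% and 58.5% of the reads in these animals. At 16 months it held 47.1%, 53.8% and 49.5%. The part of these values in the estimates was not tested. In SMARCD1 the estimate came mostly from animal 2 (-1.59), against -0.06 and -0.07 in animals 1 and 3.

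When the first windows of all labelled genes were tested on their own, SMARCB1 was the only member with enough reads. Its log2 fold change was again -1.46 (standard error 0.36), and with the adjustment over 5751 first windows it was not called (edgeR quasi-likelihood test, adjusted p = 0.274). In this fit edgeR's quasi-likelihood test called 0% of first windows. An unadjusted p under 0.05 was reached by 488 of them (8.49%), while the likelihood-ratio test called 31 and DESeq2 called 1.

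The other genes of the SWI/SNF complexes were read from the same fit. Of 22 gene symbols listed, some of them older and newer names, 19 were labelled, with 86 of 287 windows tested. Of these windows 2 were called, both higher at 16 months and both carrying the label BCL11B in the files, a zinc finger subunit known from T cells and skin, and 0 of 19 genes were called when summed. The window chr21:65927663-65930662 has no coding number and was not placed against an annotation here, and the study listed it as intergenic. Its values were 0.322, 0.696 and 0.476 CPM at 5 months and 1.84, 2.28 and 1.98 CPM at 16 months. The log2 fold change was 2.05 ± 0.46 (standard error, edgeR, adjusted p = 0.0206). At chr21:65840663-65843662 it was 1.26 ± 0.26 (adjusted p = 0.00512), but animals 1 and 2 rose by 2.02 and 1.99 and animal 3 had -0.48. Among ATPases of other remodellers, 20 of 22 listed genes were labelled and 1 of 126 tested windows was called, in CHD5, a subunit of NuRD-type complexes (chr16:48030781-48033780, log2 fold change -1.01 ± 0.27, adjusted p = 0.0903, and -0.53 without animal 1). All 3 of these calls were lost with DESeq2, with no filter, with no animal block and without animal 1 or animal 2. Without animal 1 or animal 2 the value at chr21:65840663-65843662 was 0.80 or 0.76, and without animal 3 it was 2.18. The median log2 fold change was 0.01 over the other SWI/SNF windows and -0.03 over those of the other remodellers, against -0.15 over the member windows.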

How the data were processed

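MIRA-Seq libraries of 6 fibroblast cultures were analysed. The authors trimmed and filtered the reads and used NextGENe v2.3.4 for alignment to UMD v3.1, the bovine assembly. They deposited unnormalized counts of reads for consecutive 3 kb windows. The deposited files also give the highest depth of each window, a signal not scaled to library size, which was divided by the count to look for stacks. How PCR copies and multiply matching reads were treated is not given in the sources used, so reads may not be independent molecules. Gene labels, strands and coding numbers are those of the files.

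Counts were fitted over all windows, over gene sums and over first windows with edgeR 4.0.16 (limma 3.58.1, R 4.3.3), with TMM factors over tested windows and the animal as a block. CPM for the filter was taken over the counts of all windows. The methods of the study name a likelihood-ratio test, replaced here by the quasi-likelihood test, in which uncertainty in the dispersion is taken into account. A standard error is the size of the log2 fold change over the square root of F. The block left 2 residual degrees of freedom, with 178 prior degrees of freedom over windows. Log2 differences of single animals used log2(CPM + 0.5). The pairing comes from the animals. Deviations of paired libraries from the mean of their age correlated at 0.290, 0.544 and 0.710 in animals 1, 2 and 3. DESeq2 1.42.0 served as an alternative. RPKM, region tests and figures used Python 3.11.15 (matplotlib 3.10.9, scipy 1.17.1, pandas 2.3.3, numpy 2.4.6). Scripts were tested on simulated data.

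The members and gene lists were chosen with earlier results of these data known. Named windows are, per member, the first, the one with most reads, the tested one with the lowest p and any called, the tested windows of ARID1A, and those nearest the threshold. Genes of other lists are named where a window was called. The adjoining windows of called ones are outside this rule and were chosen after the values were seen. BICRA, BICRAL, GLTSCR1L, RAD54L2 and SRCAP had no label under these symbols. Alternatives were other tests, scalings, filters, thresholds, no block, left-out animals and other region summaries. Those for the lists of non-members were added after seeing the data.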

Additional observations from a re-analysis of the deposited data

How the results depend on the processing

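The count of 2 member windows called held with the likelihood-ratio test, DESeq2 size factors, a filter of 0.5 CPM and an FDR of 0.05. It was 1 with DESeq2, library size only or TMM factors from all windows, 0 with no filter (7 at p under 0.05), and 0 to 4 when an animal was left out. With no replicate block 0 were called (3 at p under 0.05) by edgeR's quasi-likelihood test. Over all windows the 194 calls became 15 with DESeq2, 99 with library size only, 2 with no filter, 96 with a filter of 0.5 CPM, 0 with no block, 25 with TMM factors from all windows and 14, 68 and 1278 without animals 1, 2 and 3. Member first windows called went from 0 to 1 with the likelihood-ratio test, library size only or a filter of 0.5 CPM, and from 0 to 1 when an animal was left out. Calls in other SWI/SNF genes went from 2 to 1 with library size only, a filter of 0.5 CPM or TMM factors from all windows, to 0 with DESeq2, no filter or no block, and from 0 to 2 when an animal was left out. The 1 call in other remodellers was lost (0) with DESeq2, its size factors, library size only, no filter, a filter of 0.5 CPM, no block, an FDR of 0.05 and TMM factors from all windows, and was 0 to 4 when an animal was left out. Gene sums gave 0 member calls under every alternative run. Without animal 2, however, 278 of all genes were called and 2 members had an unadjusted p under 0.05 (edgeR). The sum of ARID2 then had a log2 fold change of 0.81 (edgeR, adjusted p = 0.0276), past the FDR limit but short of 2-fold.

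Of the 10 first windows, 7 passed against the mean of the body, 9 with the window upstream added to the first, and 0 against the median of the body. With the median 5 stayed lower in every library (adjusted p = 0.0521, exact test) and ARID1A turned to 0.39. ARID1B turned to 0.77 and was higher in every library (adjusted p = 0.0521, exact test). ARID1B ranged from -0.23 to 0.080 over left-out animals. Leaving out an animal leaves 4 libraries and an exact p of at least 0.125, so only the direction could be read. Of 6 genes that passed for coding against other windows, 5 did with the median, without ARID2. Only SMARCC1 reversed, to -0.25 with the median, with a range of -0.043 to 0.23 over left-out animals. Without its called window the sum of ARID1A went from -0.25 to -0.13. Gene sums near 0 changed sign. SMARCB1 was 0.041 with DESeq2, 0.042 with its size factors, 0.039 without its called window, 0.016 with library size only, 0.10 with no block and -0.19 to 0.30 when an animal was left out. SMARCA2 was 0.019 with DESeq2 or its size factors. Over left-out animals SMARCA2 ranged from -0.14 to 0.12, ARID2 from -0.012 to 0.81, SMARCA4 from -0.41 to 0.035 and SMARCC1 from -0.27 to 0.28. The causes of these changes were not tested. The filter on CPM left out 332 of 403 member windows, among them every window of ARID2, and with a filter of 0.5 CPM 121 were tested, so for most windows of low signal no difference was tested.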
